A study of Mus musculus with 10 samples.

Results

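The insulin and IGF axis genes described here are 10 genes taken by name, namely Insr, Irs1, Irs2, Igf1, Igfals, Igfbp1, Igfbp2, Igfbp4, Foxo1 and Ghr. All 10 were found among the 18055 gene IDs listed in any library, and all 10 passed the filter on low counts that left 14097 genes to test. RNA sequencing was performed on primary hepatocytes, cultured parenchymal cells isolated from the liver of C57BL/6 mice. There were 5 groups with 2 libraries each. The Vehicle group carried no free fatty acid (FFA), the PA group received 200 µM palmitate, a saturated FFA, and the LA group received 12 µM linoleate, a polyunsaturated FFA, for 24 h. The PA+NTP and LA+NTP groups received the same FFA after 1 h of pretreatment with Neurotropin (NTP), a protein-free drug prepared from the skin of rabbits in which vaccinia virus had caused inflammation. The labels give no NTP dose, and the study's description of the experiment gives 0.4 NU/mL. The labels name medium with 10% serum for every group, whereas the methods describe a change to serum-free medium overnight before treatment, so the insulin and growth factors that the cells received are not settled by these sources. No group received NTP without an FFA, and PA and LA were given at different doses, so PA and LA values stand side by side and no test was made of one FFA against the other. The only test across the FFAs was that of the NTP effect under LA minus that under PA. Nothing in the labels says that the libraries of a group came from separate cultures or animals, so that p-values measure only the spread between these libraries.

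Insulin binds the receptor encoded by Insr, which phosphorylates the adaptors IRS1 and IRS2, and the kinase AKT that they activate keeps the transcription factor FOXO1 out of the nucleus. The liver is the main source of circulating IGF1, which growth hormone induces through the receptor encoded by Ghr. In blood, IGF1 travels bound to IGF-binding proteins and to the acid-labile subunit encoded by Igfals. Igfbp1 and Irs2 are known in liver as genes that FOXO1 activates and insulin represses.

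Depth ranged from 13142588 to 60046937 expected counts per library, RSEM's estimates of the reads of each gene, and FPKM scales them to transcript length and depth. Albumin (Alb) stood between 1929 and 2818 FPKM, and 9 of 10 hepatocyte markers were found, none at 0. Their summed FPKM was 3620 to 3810 in Vehicle, 2640 to 2850 in PA, 3120 to 3440 in PA+NTP, 3670 to 3720 in LA and 4270 to 4490 in LA+NTP. Alb and Apoa1 made up most of this sum. Apoa1 was at 547 and 440 FPKM in Vehicle and 208 and 181 in PA, and Ttr, Serpina1a and Hnf4a were also lower in PA. Apob was at 300 and 324 FPKM in Vehicle and 296 and 314 in PA, and Cyp2e1 at 18.9 and 18.0 and at 20.0 and 20.7. Leukocyte markers (7 of 10 found, 3 to 5 of them at 0 in a group) summed to at most 0.81 FPKM, and stellate cell markers (10 of 10 found) to 27.2 to 27.3 FPKM in PA and 31.0 to 36.0 in the other groups. The endothelial sum (10 of 10 found) was 60.8 to 61.2 FPKM in Vehicle, 43.3 to 44.3 in PA and 46.8 to 48.1 in LA. It was 49.7 to 54.5 FPKM in PA+NTP and 65.3 to 67.5 in LA+NTP, and Cdh5, Egfl7 and Pecam1 made up most of it. They were lowest in the groups with an FFA alone, as Irs2 was. The macrophage sum (10 of 10 found) of 211 FPKM in Vehicle, 203 to 239 in PA, 270 to 298 in PA+NTP, 127 to 132 in LA and 186 to 201 in LA+NTP was carried by Cd68. Of its low members, Marco was at 0.42 to 0.95 FPKM in Vehicle, LA and LA+NTP and at 2.90 to 4.59 in PA and PA+NTP, whereas C1qc was at 1.27 and 1.28 in Vehicle and 0.22 and 0.27 in PA, and Cd5l at 2.84 and 2.70 in Vehicle and 1.16 and 1.31 in PA. Adgre1 was between 0.34 and 1.12 FPKM, and Clec4f and Vsig4 were at most 0.29 and 0.30. The cholangiocyte sum (8 of 8 found) of 414 to 535 FPKM in PA and 579 to 716 in the other groups was carried by Spp1, while Krt19 was between 0.15 and 0.92 FPKM. In such bulk libraries, fewer cells of a type and less RNA per cell cannot be told apart, and the part of these marker sums in the results was not tested. Libraries also differed in how expression followed transcript GC content. Per library, a gene's distance from its own average correlated with GC at Spearman's rho of -0.468 and -0.473 in PA and -0.558 and -0.557 in LA, and at 0.337 to 0.561 in the other 6 libraries, over 13972 genes that share these libraries.

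Igfbp1, Igf1 and Irs2 were the members lowered by PA, and Irs1 was called lower in PA+NTP than in Vehicle. The 250 bases before the start of these 4 genes are shown because a FOXO1-type motif was searched in them. They come from the RefSeq table of the mouse build GRCm38.p6, 5′ to 3′ on the strand of the gene, with motif letters in capitals. Starts are those of that table and can differ from the gene bounds given below. The Igf1 window lies inside its gene bounds, which begin at 87858265, so the bases before those bounds were not searched. The Irs2 window lies apart from its gene bounds, which end at 11008458.
Igfbp1 (chr11:7197537-7197786, plus strand): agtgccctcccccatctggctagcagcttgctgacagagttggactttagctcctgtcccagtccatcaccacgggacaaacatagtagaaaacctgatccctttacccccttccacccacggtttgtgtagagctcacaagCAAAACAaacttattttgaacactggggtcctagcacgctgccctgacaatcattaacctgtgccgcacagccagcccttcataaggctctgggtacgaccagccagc
Igf1 (chr10:87860861-87861110, plus strand): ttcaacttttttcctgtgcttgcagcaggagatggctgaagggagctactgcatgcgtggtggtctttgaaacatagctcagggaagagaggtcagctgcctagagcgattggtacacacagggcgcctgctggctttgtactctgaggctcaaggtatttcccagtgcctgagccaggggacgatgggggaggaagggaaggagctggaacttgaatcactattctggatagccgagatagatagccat
Irs2 (chr8:11008930-11009179, minus strand): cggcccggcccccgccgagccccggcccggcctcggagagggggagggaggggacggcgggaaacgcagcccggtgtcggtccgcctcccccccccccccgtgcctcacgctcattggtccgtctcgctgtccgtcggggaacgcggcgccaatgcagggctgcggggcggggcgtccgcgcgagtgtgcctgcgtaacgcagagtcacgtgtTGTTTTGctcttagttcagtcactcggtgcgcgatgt
Irs1 (chr1:82291440-82291689, minus strand): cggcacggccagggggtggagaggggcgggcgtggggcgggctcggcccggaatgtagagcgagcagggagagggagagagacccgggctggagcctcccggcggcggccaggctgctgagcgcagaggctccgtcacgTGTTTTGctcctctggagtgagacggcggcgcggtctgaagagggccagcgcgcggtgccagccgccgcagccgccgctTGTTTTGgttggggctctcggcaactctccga
The letters GTAAACA and CAAAACA were searched on both strands, and the 2 motifs do not overlap in any of these windows. CAAAACA stands 108 bases before the start of Igfbp1, 37 bases before that of Irs2 and 111 and 32 bases before that of Irs1, in both Irs genes on the strand opposite the gene, so that the capitals read TGTTTTG. The Igf1 window, before a start inside the gene bounds, holds neither. Together the 9 members with an entry have 13 windows, as Igfals, Igfbp2 and Ghr have several entries. The only other match was a GTAAACA 242 bases before a start of Igfals, also on the opposite strand. CAAAACA occurs in 5.56% and GTAAACA in 3.17% of all 32851 windows of this length, so a match describes the letters and does not by itself show a binding site.

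Levels of the members ranged widely in FPKM, and 2 binding proteins were the most abundant. In the Vehicle libraries Igfbp1 was at 167 and 151 FPKM, Igfbp4 at 92.6 and 81.3, Igf1 at 42.3 and 44.1, Ghr at 31.3 and 31.9, and Insr at 25.6 and 25.8. Below them stood Igfals at 8.25 and 6.98 FPKM, Foxo1 at 6.35 and 6.68, Igfbp2 at 2.36 and 2.52, Irs2 at 1.61 and 1.67, and Irs1 at 1.59 and 1.55. Neighbours in this order did not overlap between the 2 Vehicle libraries, although Irs2 and Irs1, the lowest, were nearly level. Over all 10 libraries the mean FPKM of Igfbp1 was above that of 96.7% of all listed genes and that of Irs1 above 40.7%. Irs2 rested on 45 to 530 counts and Igfbp2 on 43 to 278, so these 2 genes carried the largest errors.

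**Figure D1:**
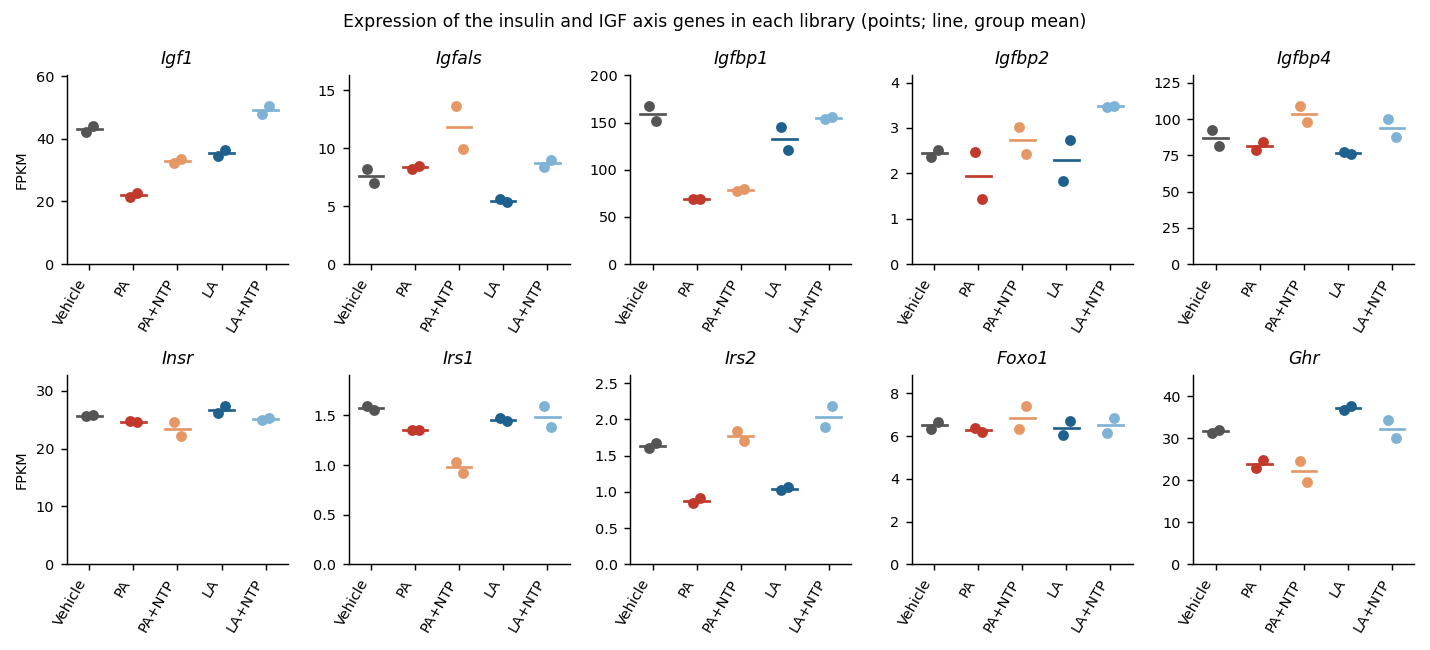
FPKM (vertical axis from 0, a separate scale for each gene) of the 10 insulin and IGF axis genes in the 5 groups, with a point for each of the 2 libraries and a line at the group mean. Igfbp1 falls from 167 and 151 FPKM in Vehicle to 69.4 and 69.0 in PA and is at 77.0 and 79.7 in PA+NTP, while Irs2 is low in PA and LA and at 1.70 to 2.18 in the NTP groups.

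The effect of each FFA was tested against Vehicle in a fit of edgeR's quasi-likelihood test over all 10 libraries, with Benjamini-Hochberg adjustment over 14097 genes. A gene is said to have changed where its adjusted p was under 0.05, and it was called where it had also moved 1.5-fold or more. With PA, 3 of 10 members were called lower, Igfbp1, Igf1 and Irs2, against 8.92% of all tested genes, and none was called higher. The same 3 were the only members to change with PA at any fold in this fit, against 45.5% of tested genes. The median log2 fold change of the members with PA was -0.19, and -0.01 over all tested genes. With LA, 1 of 10 was called lower, Irs2, against 7.11% of tested genes. At any fold 4 of 10 changed with LA, Irs2, Igfals and Igfbp1 downward and Ghr upward, against 41.3% of tested genes, and the median of the members was -0.07. Scaling to library size without TMM shifted the split of called genes from 498 higher and 1002 lower to 360 and 1197 with LA, and that of PA+NTP against PA from 1232 higher and 721 lower to 1492 and 518.

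The effect of NTP was tested against the FFA alone, in contrasts that use the same PA and LA libraries as those above. In PA+NTP relative to PA, 1 of 10 members was called higher, Irs2, against 8.74% of tested genes, and 6 of 10 changed at any fold, against 44.7%. Igf1, Igfals, Igfbp4 and Irs2 rose and Irs1 and Ghr fell. In LA+NTP relative to LA, 2 of 10 were called higher, Irs2 and Igfals, against 11.7% of tested genes, and 4 of 10 changed at any fold, against 51.5%, as Igfbp4 also rose and Ghr fell. At any fold the members' share was close to that of all tested genes with LA, lower with PA and in LA+NTP against LA, and higher in PA+NTP against PA. With 10 members these differences rest on few genes, and none was tested. With PA the order turned after removal of a GC trend, to 7 of 10 against 31.3%.

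Against Vehicle, PA+NTP differed in 3 of 10 members by call, Igfbp1 and Irs1 lower and Igfals higher, against 2.85% of tested genes called either way. At any fold 5 of 10 differed, with Igf1 and Ghr also lower, against 10.1% of tested genes. LA+NTP differed from Vehicle in 0 of 10 members, against 0.0922% of genes called and 0.284% at any fold. Beside that count of 0 from edgeR's test, 1 member (Irs2) had an unadjusted p under 0.05, and DESeq2 called 0 members. The difference between the NTP effects under LA and under PA was called for 0 of 10 members and for 0 tested genes (0%), where 2 members and 1029 genes had an unadjusted p under 0.05 and DESeq2 called 0 members and 5 genes.

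These counts depended on the GC pattern of the libraries. That pattern split by treatment, with the libraries of an FFA alone on one side and all Vehicle and NTP libraries on the other. An effect of treatment on GC-rich genes and a GC difference of another source therefore cannot be told apart. Removal of the trend may take out part of a treatment effect, so a call lost with it is not shown to be an artefact. After a smooth GC trend had been removed from each library, 7 of 10 members changed with PA at any fold in edgeR's test, against 31.3% of tested genes. Igfbp1, Igf1 and Irs2 were joined by Igfals at 0.57 (adjusted p = 0.00413) and Igfbp4 at 0.23 (0.0319), both upward, and by Ghr at -0.35 (0.0146) and Insr at -0.17 (0.0385), both downward. On this scale 0 of 10 changed with LA, where 3 members had an unadjusted p under 0.05, against 18.2% of tested genes. In PA+NTP against PA 3 of 10 changed (Igf1, Irs1 and Irs2), against 27.2%, and in LA+NTP against LA 1 of 10 (Irs2), against 27.6%. In PA+NTP against Vehicle 5 of 10 changed, against 10.1%, of which Igfbp1 and Irs1 were called.

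**Figure D2:**
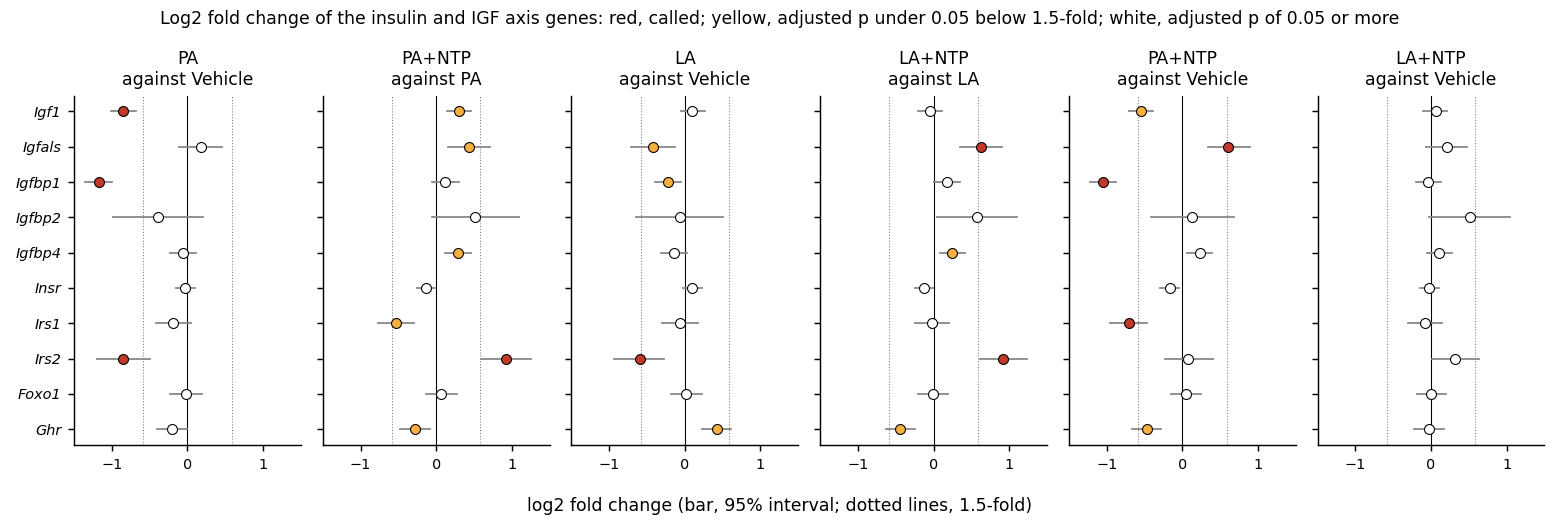
Log2 fold change (horizontal axis, 95% interval as a bar) of the 10 genes in 6 contrasts from edgeR's quasi-likelihood fit, with dotted lines at 1.5-fold in either direction and colours for genes called, changed below 1.5-fold, or neither. Igfbp1 lies at -1.17 in PA and -1.05 in PA+NTP against Vehicle, and Irs2 lies below 0 with each FFA and at 0.93 and 0.92 with NTP against PA and LA.

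Among the ligand and its carriers, Igf1, the gene of insulin-like growth factor 1 (gene ID 16000, chromosome 10, 87858265 to 87937042, plus strand), fell with PA. In counts scaled by depth and TMM (CPM), it had 118 and 124 in Vehicle, 64.7 and 69.3 in PA and 77.3 and 88.0 in PA+NTP. It had 124 and 136 in LA and 123 and 128 in LA+NTP. Both PA libraries and both PA+NTP libraries lay below all libraries of the other 3 groups, and PA and PA+NTP did not overlap. The log2 fold change with PA was -0.85 (SE 0.08, adjusted p = 1.76e-06 from edgeR's quasi-likelihood test), a 1.80-fold lower level. With NTP it rose by 0.30 on the log2 scale above PA (SE 0.08, adjusted p = 0.00539) and still stood at -0.55 against Vehicle (SE 0.07, adjusted p = 0.000371). With LA the difference was 0.10 (95% interval -0.05 to 0.26) and with LA+NTP against LA -0.05 (-0.20 to 0.11). The NTP effect was smaller under LA than under PA by 0.35 on the log2 scale (interval of the difference -0.57 to -0.12), with an unadjusted p of 0.00545 in edgeR's test that did not pass adjustment (adjusted p = 0.629). Without PA+NTP 2 the rise of Igf1 over PA was 0.19 and no longer passed (adjusted p = 0.0713).

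Igf1 and Ghr are the only members for which several RefSeq transcripts were counted, 5 and 3, and the transcript length that RSEM estimated for them moved between groups. For Igf1 it was 2784 and 2820 bases in Vehicle, 2938 and 2995 in PA and 2466 and 2639 in PA+NTP, with 3487 and 3601 in LA and 2571 and 2540 in LA+NTP. Both LA libraries had longer estimates than all other libraries. The transcripts of Igf1 with a GENCODE counterpart range from 651 to 7052 bases. Because FPKM divides by this length, counts and FPKM of Igf1 part in LA. Its FPKM was 34.4 and 36.5 in LA against 42.3 and 44.1 in Vehicle and 47.9 and 50.5 in LA+NTP. The log2 ratio of LA to Vehicle was -0.28 in FPKM and 0.10 in counts, and that of LA+NTP to LA was 0.47 in FPKM and -0.05 in counts. In limma on log2(FPKM + 1) both FPKM changes passed (adjusted p = 0.00387 with LA and 0.000161 in LA+NTP against LA), whereas neither count change passed edgeR's test. Of 3078 genes whose estimated length varied between libraries, 0.71% had a length change as large as that of Igf1 with LA (0.34 on the log2 scale), and 0.13% one as large as its change in LA+NTP against LA (-0.47). The direction of the Igf1 change with LA therefore depended on the unit, whereas with PA both units fell, by 0.85 in counts and by 0.97 in FPKM on the log2 scale. The size of the NTP effect under PA also depended on it, as PA+NTP to PA was 0.30 in counts and 0.58 in FPKM, and PA+NTP to Vehicle -0.55 and -0.39.

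**Figure D3:**
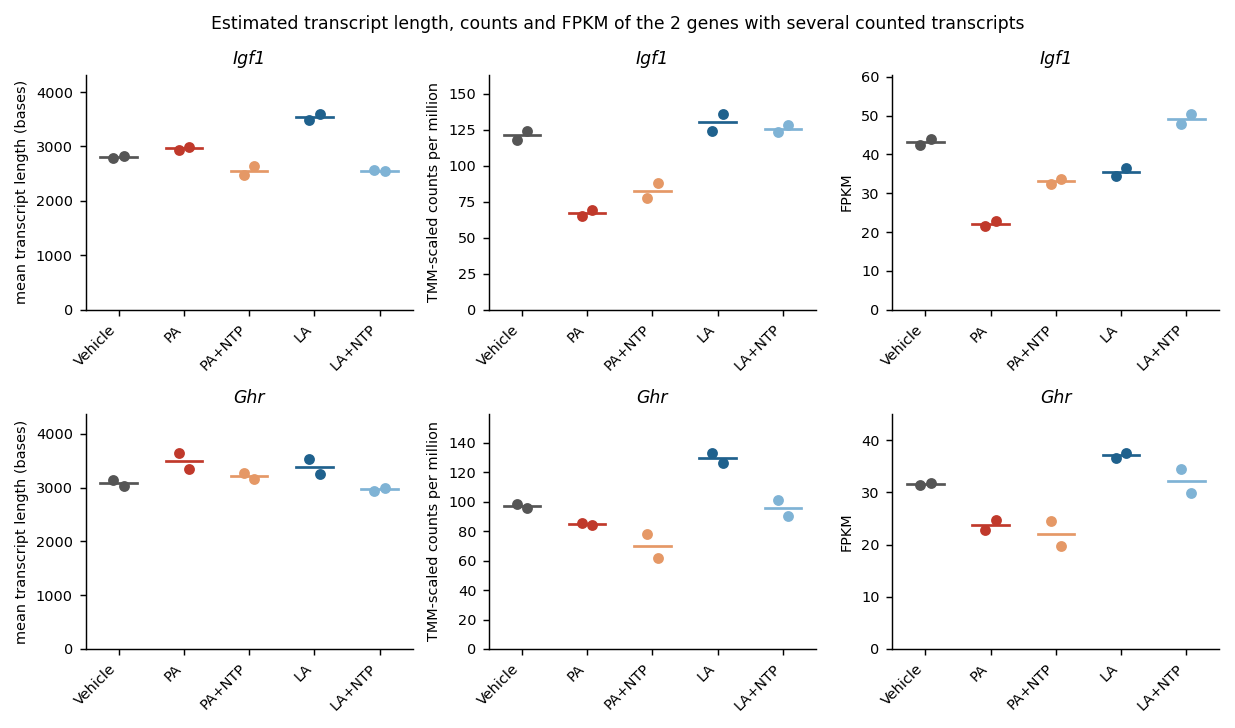
Mean transcript length estimated by RSEM (bases), TMM-scaled CPM and FPKM of Igf1 and Ghr in the 5 groups, with a point for each of the 2 libraries, a line at the group mean and axes from 0. The Igf1 length is 3487 and 3601 bases in LA and at most 2995 in the other groups, so that LA lies with Vehicle in counts and below it in FPKM.

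Igfals, the gene of the acid-labile subunit that holds IGF1 in the large circulating complex (gene ID 16005, chromosome 17, 24865997 to 24882010, plus strand), was at 8.25 and 6.98 FPKM in Vehicle and 8.24 and 8.47 in PA. It was at 13.7 and 9.96 FPKM in PA+NTP, 5.59 and 5.37 in LA and 8.42 and 8.98 in LA+NTP. The LA libraries were the lowest and the PA+NTP libraries the highest, with a wide gap between the 2 PA+NTP libraries. Igfals fell by 0.42 on the log2 scale with LA (SE 0.14, adjusted p = 0.0236 from edgeR's test) and rose by 0.63 with LA+NTP against LA (SE 0.13, adjusted p = 0.000983). PA+NTP exceeded PA by 0.44 (SE 0.13, adjusted p = 0.0125) and Vehicle by 0.61 (SE 0.13, adjusted p = 0.00782). Without PA+NTP 1 the last 2 values were 0.22 and 0.40, and without Vehicle 2 the last was 0.49, and the call against Vehicle was lost in each case. The fall with LA, at -0.30 without Vehicle 1, no longer passed the adjusted p when Vehicle 1 or either LA library was left out, nor did PA+NTP against PA without PA+NTP 1 or either PA library. Its transcript has a GC content of 59.0%, higher than that of 93.3% of tested genes. With the GC trend removed, the LA value was 0.02, the LA+NTP value 0.07 and the value of PA+NTP against PA 0.01, none of which passed the adjusted p in edgeR's test. PA+NTP against Vehicle was 0.58 on that scale (adjusted p = 0.00903), just under 1.5-fold, so that its call was lost, and PA against Vehicle moved from 0.18 to 0.57 (adjusted p = 0.00413).

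Igfbp1 encodes a secreted IGF-binding protein made mainly by hepatocytes (gene ID 16006, chromosome 11, 7197782 to 7202546, plus strand), and it changed more with PA than any other member. It was at 167 and 151 FPKM in Vehicle, 69.4 and 69.0 in PA and 77.0 and 79.7 in PA+NTP. It was at 145 and 121 FPKM in LA and 154 and 156 in LA+NTP. The 4 libraries that received PA, with or without NTP, lay below the other 6 without overlap. The log2 fold change with PA was -1.17 (SE 0.08, adjusted p = 2.22e-07 from edgeR's quasi-likelihood test), a 2.25-fold lower level, and with PA+NTP against Vehicle -1.05 (SE 0.08, adjusted p = 3.90e-06). NTP moved it by 0.12 above PA (95% interval -0.05 to 0.30, adjusted p = 0.243). With LA it fell by 0.22 (SE 0.08, adjusted p = 0.0400), a 1.16-fold difference, and LA+NTP differed from Vehicle by -0.04 (interval -0.20 to 0.13). The small LA value was -0.14 without Vehicle 1, -0.09 without LA 2 and -0.19 with the GC trend removed, and passed the adjusted p in none of these. It also missed the threshold narrowly, at adjusted p = 0.0508 to 0.0542, without 1 library of PA or of LA+NTP. The GC content of its transcript is 50.9%, near the median of 50.4% for tested genes, and with the GC trend removed the value with PA was -1.14 and with PA+NTP against Vehicle -1.04, both called.

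Igfbp4 and Igfbp2 encode 2 further binding proteins. Igfbp4 (gene ID 16010, chromosome 11, 99041244 to 99054392, plus strand) was at 92.6 and 81.3 FPKM in Vehicle, 78.3 and 84.2 in PA and 77.6 and 75.6 in LA, and at 109 and 97.9 in PA+NTP and 100.1 and 87.6 in LA+NTP. Each NTP group lay above its FFA group without overlap, and the LA+NTP libraries overlapped Vehicle. It did not pass the test with PA (-0.06) or LA (-0.14), and it rose by 0.29 with NTP above PA (SE 0.08, adjusted p = 0.00863 from edgeR's test) and by 0.25 above LA (SE 0.08, adjusted p = 0.0153). These 2 values were -0.03 and -0.16 with the GC trend removed, at a transcript GC content of 56.6%, while its PA value was then 0.23 (adjusted p = 0.0319). The rise over LA was 0.16 without LA+NTP 1 (adjusted p = 0.190) and no longer passed without LA 1 (0.0561) or LA 2 (0.0986) either. The rise over PA no longer passed without PA 1 (0.24) or PA+NTP 1 (0.23). Igfbp2 (gene ID 16008, chromosome 1, 72824503 to 72852474, plus strand) stayed between 1.44 and 3.48 FPKM. Its LA+NTP libraries, at 3.47 and 3.48 FPKM, were the highest, but none of its contrasts passed the test, with 0.58 in LA+NTP against LA (95% interval 0.05 to 1.11, adjusted p = 0.0624) and 0.52 in PA+NTP against PA (-0.06 to 1.10, adjusted p = 0.134). The PA value of -0.39 had an interval from -0.99 to 0.21, wide enough to hold a fall of over 1.5-fold.

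Of the receptors, Insr, the insulin receptor gene (gene ID 16337, chromosome 8, 3122061 to 3279617, minus strand), was the steadiest member together with Foxo1. Its FPKM was 25.6 and 25.8 in Vehicle, 24.7 and 24.6 in PA, 24.6 and 22.1 in PA+NTP, 26.2 and 27.3 in LA and 25.0 and 25.2 in LA+NTP. The highest library was 1.23 times the lowest, and no contrast passed the adjusted p in edgeR's test, although the PA value did with the GC trend removed (-0.17, adjusted p = 0.0385). The largest difference was -0.16 on the log2 scale in PA+NTP against Vehicle (95% interval -0.29 to -0.04, adjusted p = 0.0919), and the intervals for Insr held no change of 1.5-fold in any contrast.

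Ghr, the growth hormone receptor gene (gene ID 14600, chromosome 15, 3317760 to 3583492, minus strand), had 98.2 and 96.0 TMM-scaled CPM in Vehicle, 133 and 126 in LA and 101 and 90.0 in LA+NTP. It had 85.5 and 84.1 in PA and 78.1 and 61.7 in PA+NTP. Both LA libraries stood above all others, and both PA+NTP libraries below. Ghr rose by 0.42 with LA (SE 0.09, adjusted p = 0.00217 from edgeR's test) and fell by 0.44 in LA+NTP against LA (SE 0.09, adjusted p = 0.000838), where it differed from Vehicle by -0.03 (95% interval -0.22 to 0.17). With PA the difference of -0.20 did not pass (adjusted p = 0.102), while PA+NTP was lower than PA by 0.28 (SE 0.09, adjusted p = 0.0254) and lower than Vehicle by 0.47 (SE 0.09, adjusted p = 0.00501). None of these changes reached 1.5-fold. Without PA+NTP 1 the difference from Vehicle was -0.64 and was called, and without Vehicle 1 it was -0.46 (adjusted p = 0.0544). The difference from PA was -0.13 without PA+NTP 2 (adjusted p = 0.211) and -0.22 with scaling to library size alone (0.0830), and it did not pass without either PA library. With a transcript GC content of 46.7%, near the low end of the members, Ghr had GC-adjusted values of 0.24 with LA, -0.22 in LA+NTP against LA and -0.12 in PA+NTP against PA, none past the adjusted p. Its GC-adjusted PA value of -0.35 did pass (adjusted p = 0.0146), and the value against Vehicle in PA+NTP was again -0.47 (adjusted p = 0.00769). Its estimated transcript length was 3523 and 3253 bases in LA and 2936 and 2999 in LA+NTP, and in FPKM the log2 ratios were 0.23 for LA to Vehicle, -0.21 for LA+NTP to LA, -0.41 for PA to Vehicle and -0.10 for PA+NTP to PA. In limma on log2(FPKM + 1) the LA change (adjusted p = 0.102), LA+NTP against LA (0.121) and PA+NTP against PA (0.424) no longer passed.

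The adaptors IRS1 and IRS2 carry the signal from the insulin receptor to PI3K, and their genes, expressed at similar levels in Vehicle, moved differently. Irs2 (gene ID 384783, chromosome 8, 10984681 to 11008458, minus strand) was at 1.61 and 1.67 FPKM in Vehicle, 0.84 and 0.92 in PA and 1.02 and 1.07 in LA. It was at 1.84 and 1.70 FPKM in PA+NTP and 1.90 and 2.18 in LA+NTP. The 4 libraries with an FFA alone lay below the 6 others, and the 4 NTP libraries lay above both Vehicle libraries. Irs2 fell by 0.85 on the log2 scale with PA (SE 0.16, adjusted p = 0.000665 from edgeR's test) and by 0.60 with LA (SE 0.15, adjusted p = 0.00600). It rose by 0.93 in PA+NTP against PA (SE 0.16, adjusted p = 0.000260) and by 0.92 in LA+NTP against LA (SE 0.15, adjusted p = 0.000110), and the NTP effects under the FFAs differed by 0.00 (95% interval -0.45 to 0.44). Against Vehicle, PA+NTP differed by 0.08 (interval -0.23 to 0.40) and LA+NTP by 0.32 (0.01 to 0.63, adjusted p = 0.327). The call with LA sat close to the 1.5-fold limit and was lost when Vehicle 2 (-0.58) or LA 1 (-0.56) was left out. The transcript GC content of Irs2 is 56.6%, higher than that of 83.5% of tested genes. With the GC trend removed, the 4 values were -0.57 with PA (adjusted p = 0.0152), -0.29 with LA (0.219), 0.62 in PA+NTP against PA (0.00925) and 0.52 in LA+NTP against LA (0.0161) in edgeR's test. On this scale only the value of PA+NTP against PA was called, and the LA value no longer passed the adjusted p.

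Irs1 (gene ID 16367, chromosome 1, 82233101 to 82291416, minus strand) was at 1.59 and 1.55 FPKM in Vehicle, 1.35 and 1.35 in PA and 1.47 and 1.44 in LA. It was at 1.03 and 0.92 FPKM in PA+NTP and 1.59 and 1.38 in LA+NTP. Only the PA+NTP libraries stood apart, below all others. PA+NTP was lower than Vehicle by 0.71 on the log2 scale (SE 0.11, adjusted p = 0.00105 from edgeR's test), a 1.64-fold difference, and lower than PA by 0.53 (SE 0.11, adjusted p = 0.00159). With PA alone the difference of -0.19 (95% interval -0.42 to 0.05) did not pass, and LA+NTP differed from LA by -0.02 (interval -0.24 to 0.21). The difference of the NTP effects, higher under LA by 0.51 (interval 0.18 to 0.84), had an unadjusted p of 0.00496 and an adjusted p of 0.629. GC content, 50.3% for Irs1, hardly moved these values, which were -0.71 and -0.52 with the trend removed. Of the exon bases of Irs1, 30.9% lie opposite exons of Gm9747 on the other strand, and since strand in counting is not stated, reads of the 2 genes could not be told apart there. Gm9747 is not listed in these data, so its level is not known. The same limit holds for 7.78% of the exon bases of Foxo1 (Gm20402, also not listed). It holds for 2.56% of those of Irs2 (9530052E02Rik, at a mean of 0.19 FPKM).

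Foxo1, the transcription factor that insulin signalling holds back (gene ID 56458, chromosome 3, 52268336 to 52353221, plus strand), was flat. Its FPKM was 6.35 and 6.68 in Vehicle, 6.39 and 6.20 in PA, 6.34 and 7.39 in PA+NTP, 6.06 and 6.73 in LA and 6.16 and 6.86 in LA+NTP, with each group overlapping Vehicle. Log2 fold changes lay between -0.02 and 0.07 in the 6 contrasts between groups, and none passed the test. The 95% interval with PA ran from -0.23 to 0.19. FOXO1 is controlled largely by phosphorylation and location of the protein, which these data do not measure.

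**Figure D4:**
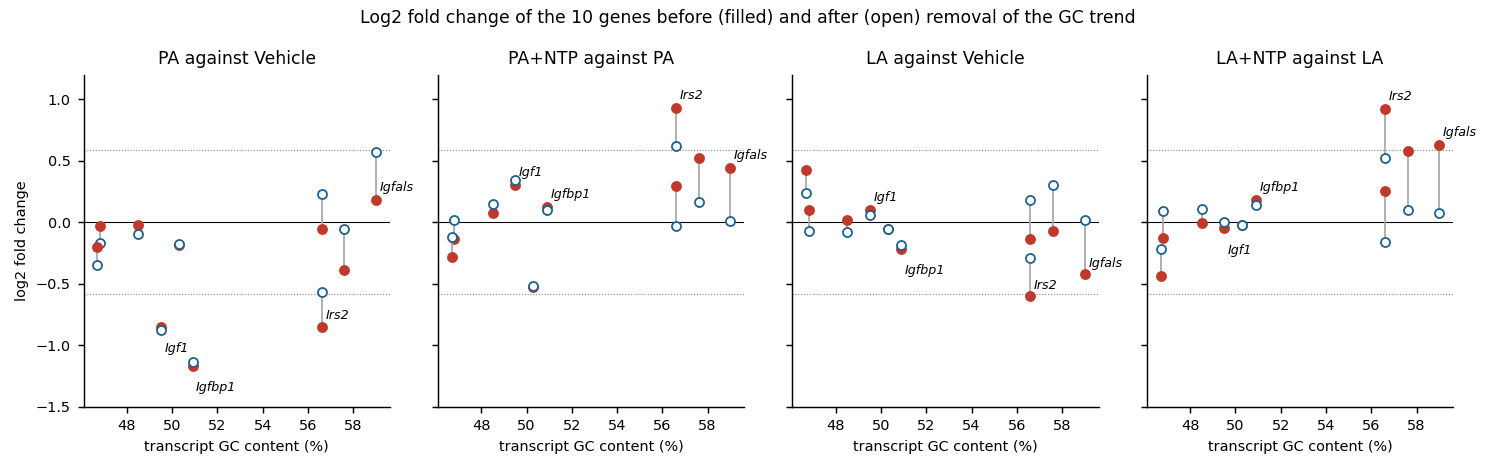
Log2 fold change (vertical axis) of the 10 genes against the GC content of their transcripts (horizontal axis, percent) in 4 contrasts, with filled points for the main fit, open points after removal of the GC trend, a line joining each pair and dotted lines at 1.5-fold. Igf1 and Igfbp1, at 49.5% and 50.9% GC, barely move, while Irs2 and Igfals, at 56.6% and 59.0%, move toward 0 in both NTP contrasts and Igfals moves from 0.18 to 0.57 with PA.

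Across the 10 libraries, members differed in how alike their profiles were, given here as Pearson's r of log2 CPM over libraries that share groups, depth and the GC pattern, as a description. Igf1 and Igfbp1 ran together at r = 0.93, Ghr and Insr at 0.94, and Igfals and Igfbp4 at 0.82, while Ghr and Igfals ran opposite at -0.82. Among the 11116 genes averaging 1 FPKM or more, those most like Igfbp1 were Ivd (0.982), an enzyme of leucine breakdown, and Igfbp3 (0.980), a further IGF-binding protein. Those most like Igf1 were Pak1 (0.986) and Timp3 (0.976), and those most like Irs2 were Plekhg2 (0.990) and Sh3bp4 (0.989). Irs1 was followed most closely by Hjv (0.955) and Habp4 (0.954), Insr by Asb13 (0.973) and Map3k5 (0.970), and Ghr by Ugt2b36 (0.983) and Hsd17b11 (0.980). For the remaining members the closest were H2-D1 (0.957) and Dancr (0.951) for Igfals, Selenom (0.931) and Arl6ip4 (0.928) for Igfbp2, Pced1a (0.950) and Trex1 (0.945) for Igfbp4, and Sfr1 (0.916) and Haus4 (0.827) for Foxo1.

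Around the members, 76 other genes of the pathway were tested, from 5 lists written by function. With PA 13 were called lower and 1 higher (Ptpn2, a phosphatase that acts on the insulin receptor and JAK kinases, at 0.62), and with LA 10 were called lower and 0 higher, in edgeR's quasi-likelihood test with Benjamini-Hochberg adjustment. With NTP above PA 11 were called higher and 1 lower (Rheb, the activator of mTOR, at -0.60), and above LA 17 higher and 1 lower (Ptpn2, at -0.63). The genes called lower were 17.1% of the 76 with PA and 13.2% with LA, beside 8.92% and 7.11% of all tested genes, and those called higher with NTP were 14.5% above PA and 22.4% above LA, beside 8.74% and 11.7%. The median log2 fold change of the 76 was -0.26 with PA, -0.12 with LA, 0.09 in PA+NTP against PA and 0.17 in LA+NTP against LA, beside -0.01, -0.01, 0.01 and 0.01 over all tested genes. After removal of the GC trend 8 were called lower with PA and 1 with LA (Eif4ebp1), beside 5.23% and 2.33% of all tested genes, and 3 higher with NTP above each FFA, beside 4.01% and 3.76%. Of the 13 lower with PA, 5 were still called, and Egfr (-0.66), Grb14 (-0.70) and Pik3r1 (-0.66) were called only then. Ptpn2 with PA (0.27) and above LA (-0.18) and Rheb (-0.40) lost their calls, whereas Trib3, an inhibitor of AKT, was called higher with PA (0.76) and lower with NTP above PA (-0.62) and LA (-0.69), as Foxo4 was with NTP (-0.71 and -0.69). These genes were named after their values were seen. Against Vehicle, PA+NTP had 3 called lower (3.95% of the 76) and 0 higher and LA+NTP had none. Of all tested genes, 2.85% and 0.0922% were called either way in these 2 contrasts.

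Among IGF ligands, receptors and other binding proteins (7 of 14 tested), Igfbp3, which carries IGF1 in the complex with the acid-labile subunit, was at 4.55 and 4.21 FPKM in Vehicle, 2.10 and 1.93 in PA and 2.53 and 2.58 in PA+NTP. It was lower with PA by 1.10 on the log2 scale (SE 0.14, adjusted p = 2.80e-05 from edgeR's test) and lower in PA+NTP than in Vehicle by 0.80 (SE 0.13, adjusted p = 0.00171), and both calls held with the GC trend removed (-0.93 and -0.81). Its values with LA, -0.17, and in PA+NTP against PA, 0.30, did not pass. In LA+NTP against LA it rose by 0.32 (SE 0.12, adjusted p = 0.0402 from edgeR's test), below 1.5-fold, and was at 0.09 after GC removal. Igfbp6, at 1.69 and 2.33 FPKM in Vehicle and 0.82 and 0.46 in PA, fell by 1.79 (SE 0.36, adjusted p = 0.00106) and was higher in PA+NTP than in PA by 1.06 (SE 0.37, adjusted p = 0.0306) and in LA+NTP than in LA by 1.09 (SE 0.29, adjusted p = 0.00549). The last 2 values were 0.58 and 0.45 after GC removal and were not called, while the PA value of -1.34 was.

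Of 16 tested adaptors and brakes of the insulin receptor, 4 were called lower and 1 higher with PA, 3 lower with LA, 5 higher with NTP above PA, and 5 higher and 1 lower above LA, where 8.92% and 7.11% of all tested genes were called lower with PA and LA and 8.74% and 11.7% higher with NTP. Dok4, a docking protein, was at 2.91 and 3.03 FPKM in Vehicle, 1.66 and 1.93 in PA and 4.34 and 4.07 in PA+NTP, a rise over PA of 1.15 (SE 0.17, adjusted p = 0.000115 from edgeR's test), and it rose by 1.13 in LA+NTP against LA. With the GC trend removed these values were 0.77 and 0.63, both still called, whereas its fall with PA, called at -0.67 (adjusted p = 0.00797), was -0.32 and did not pass (0.209). Sh2b1, an adaptor of the insulin receptor and JAK2, fell by 0.80 with PA and 0.70 with LA and rose by 0.75 and 0.83 with NTP. Its GC content is 58.4%, and its 4 values after GC removal were -0.43, -0.29, 0.35 and 0.30, below 1.5-fold. Sh2b2 was called with NTP above each FFA (0.66 and 0.77) and Dok1 with LA (-0.75), and neither was called after GC removal.

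Of 25 genes of PI3K, AKT and mTOR, 2 were called lower with PA, 3 lower with LA, 2 higher and 1 lower with NTP above PA and 3 higher above LA. Counts of this size lie near the shares of all tested genes (8.92% and 7.11% lower, 8.74% and 11.7% higher). Eif4ebp1, a repressor of translation that mTOR inactivates, was at 327 and 334 FPKM in Vehicle, 239 and 251 in PA, 202 and 188 in LA, 346 and 413 in PA+NTP and 334 and 342 in LA+NTP. It fell by 0.71 with LA (SE 0.08, adjusted p = 1.35e-05 from edgeR's test) and rose by 0.75 in LA+NTP against LA (SE 0.08, adjusted p = 3.15e-06), and both calls held with the GC trend removed (-0.66 and 0.68). Gsk3a, a kinase that AKT inhibits, fell by 0.74 with PA and 0.71 with LA and rose by 0.82 with NTP above each, and Inppl1, a phosphatase that opposes PI3K, fell by 0.72 and 0.61 and rose by 0.64 and 0.65. The GC contents of Gsk3a and Inppl1 are 59.8% and 57.6%, and none of their values reached 1.5-fold after GC removal.

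Of 14 FOXO family and insulin-responsive liver genes, 3 were called lower with PA and 3 with LA, and 1 and 5 were called higher with NTP above PA and LA, beside the same 8.92%, 7.11%, 8.74% and 11.7% of all tested genes. Foxo3 fell by 0.71 with PA and 0.65 with LA and rose by 0.71 and 0.74 with NTP, unlike Foxo1, whose values are given above. Fasn, the fatty acid synthase gene, fell by 0.65 with LA (SE 0.06, adjusted p = 4.38e-06 from edgeR's test) and rose by 0.85 in LA+NTP against LA, Srebf1, which activates it, rose by 0.72 in LA+NTP against LA, and Angptl8, an insulin-induced secreted protein, fell by 0.89 with PA and 0.66 with LA. All 4 genes have a transcript GC content of 58.4% or more, and none was called in any of these contrasts after GC removal.

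Of 14 genes of growth hormone signalling and its liver targets, 2 were called lower with PA and 1 with LA, and 2 and 3 were called higher with NTP above PA and LA. Among all tested genes these shares were 8.92%, 7.11%, 8.74% and 11.7%. Cish, a feedback inhibitor that STAT5 induces, was at 7.13 and 7.15 FPKM in Vehicle, 3.16 and 3.14 in PA, 4.10 and 4.90 in LA, 6.96 and 6.57 in PA+NTP and 9.22 and 8.43 in LA+NTP. It fell by 1.15 with PA (SE 0.12, adjusted p = 5.30e-06 from edgeR's test) and rose by 1.05 with NTP above PA (SE 0.12, adjusted p = 9.30e-06), and these 2 calls held with the GC trend removed (-0.88 and 0.75). It was also called with LA (-0.63) and in LA+NTP against LA (0.94), and these calls were lost with the trend removed (-0.32, adjusted p = 0.0587, and 0.55). Onecut1, a liver transcription factor that growth hormone induces, fell by 1.72 with PA (SE 0.33, adjusted p = 0.000649) and rose by 1.13 above PA and 0.83 above LA with NTP, with all 3 calls held after GC removal (-1.80, 1.21 and 0.95). Its PA+NTP libraries lay far apart, at 3.29 and 1.38 FPKM. Socs3, a further feedback inhibitor, rose by 0.72 in LA+NTP against LA and was at 0.01 there after GC removal.

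**Figure D5:**
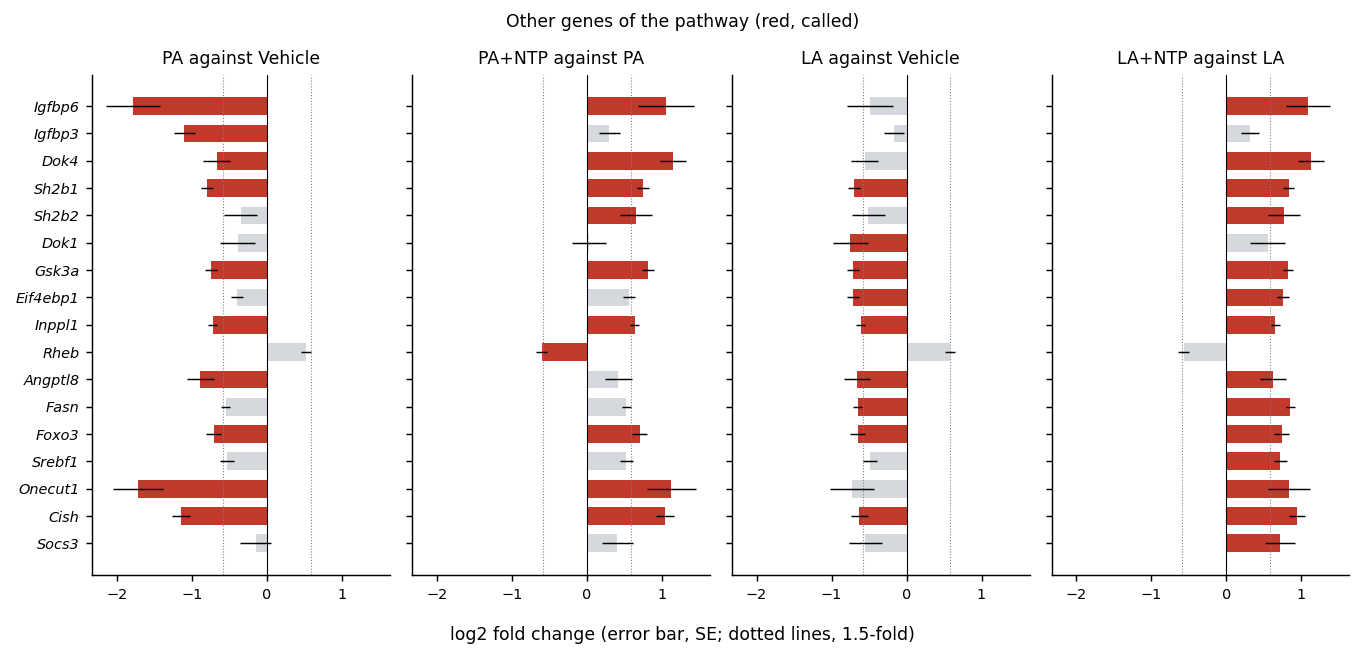
Log2 fold change (horizontal axis, SE as an error bar, dotted lines at 1.5-fold) of 17 further genes of the insulin, IGF and growth hormone pathways in 4 contrasts, with red bars for genes called and grey bars for the rest. Most bars lie below 0 with each FFA and above 0 with NTP, while Rheb lies opposite. The genes were picked as called in these contrasts, which share the FFA libraries, so opposite signs are partly built in. Igfbp3 is lower with PA by 1.10 and higher in PA+NTP than in PA by 0.30, a value that did not pass the adjusted p.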

How the data were processed

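RNA-seq libraries of 5 groups were grouped by the sample titles, which also number the replicates. According to the methods and the submitters' processing notes, the authors aligned reads with HISAT and Bowtie2 (mm10) and quantified genes with RSEM. The sources used here give neither tool versions nor the annotation release. The deposited expected counts are unnormalized estimates per gene, and the deposited FPKM were scaled by the authors for transcript length and depth. The authors also deposited the mean transcript length per gene and library. Genes absent from a library's table were taken as 0.

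Of 18055 gene IDs, 17998 were matched to symbols by ID and 11 by accession in the RefSeq table of GRCm38.p6. The members and gene lists were chosen with earlier results of these data known. Expected counts were rounded and fitted with edgeR 4.0.16 in R 4.3.3 (5 groups as 1 factor, TMM factors of 0.977 to 1.037, filterByExpr, quasi-likelihood F test), and a call needed both a Benjamini-Hochberg adjusted p under 0.05 and 1.5-fold or more. The fit was tested on simulated data. NOISeq, the tool of the study, was not run. The named genes are the 10 members, up to 4 called genes of each pathway list that averaged 1 FPKM or more, by size of change, and the 2 genes most correlated with each member. Gene positions are those of GENCODE on GRCm38. GC content, known for 99.1% of tested genes, is that of GENCODE transcripts, and its trend was removed by loess (span 0.4). Promoter windows hold the 250 bases before a start. Protein sequences were not analysed here.

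Alternatives tried were library-size scaling, DESeq2 1.42.0, no low-count filter or a mean FPKM of at least 1, no fold threshold, limma 3.58.1 on log2(FPKM + 1) and log2(FPKM + 0.1), fits of the compared groups alone, a replicate block, GC or length trends removed, and leaving out each library. Depth differed 4.57-fold between libraries, and no library repeated another of its group, with a chi-square per gene of 3.69 to 15.57 between replicates. The values of 1 gene of the pathway lists are not reported here, though it stays in their counts.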

Additional observations from a re-analysis of the deposited data

Results flagged for a closer look

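For 4 of 10 members both libraries of one FFA lay above both Vehicle libraries and both libraries of the other FFA below them in TMM-scaled counts. The same held for 4.33% of all 14097 tested genes. The log2 fold changes with LA and with PA were 0.10 and -0.03 for Insr, 0.10 and -0.85 for Igf1, -0.42 and 0.18 for Igfals, and 0.42 and -0.20 for Ghr. Of these, only the PA value of Igf1 and the LA values of Igfals and Ghr passed the adjusted p in edgeR's test. Gaps were narrow for Igf1, with 124 CPM in LA 1 and in Vehicle 2 after rounding, and for Insr, with 239 in PA 1 and 242 in Vehicle. In each case the difference was not tested, since the FFAs were given at different doses, and both contrasts use the same Vehicle libraries. With the GC trend removed, the LA and PA values were -0.07 and -0.17 for Insr, 0.06 and -0.88 for Igf1, 0.02 and 0.57 for Igfals, and 0.24 and -0.35 for Ghr. The signs still parted for Igf1 and Ghr, but their LA values did not pass edgeR's test (adjusted p = 0.588 and 0.0976). In FPKM the LA value of Igf1 was -0.28, and it passed in limma on log2(FPKM + 1) (adjusted p = 0.00387).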

How the results depend on the processing

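Of the member values followed, Igf1 and Igfbp1 with PA and Igfbp1 in PA+NTP against Vehicle kept their calls under all 22 alternatives, and DESeq2 gave the same number of members called in each contrast. LA+NTP against LA gave 1 member with the length trend removed, and 3 with library-size scaling, with no filter or at a mean FPKM of 1. With no fold threshold the genes called numbered 6411, 5824, 6306, 7257, 1425 and 40 in PA, LA, PA+NTP against PA, LA+NTP against LA, PA+NTP against Vehicle and LA+NTP against Vehicle, and the members 4, 6, 4 and 5 in the contrasts from LA to PA+NTP against Vehicle. limma on log2(FPKM + 1) called 1238, 880, 1192, 1675, 226 and 2 genes in the same 6 contrasts and 0, 0, 0 and 1 members in those 4. Removal of the GC trend left 1220, 486, 881 and 849 genes in the FFA and NTP contrasts, 0 members in LA and 0 in LA+NTP against LA, and 5 genes in LA+NTP against Vehicle.

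For LA+NTP against Vehicle (13 genes), DESeq2 called 6, no filter 67, a mean FPKM of 1 gave 7, limma on log2(FPKM + 0.1) 1 and only the groups compared 37. For the difference of the NTP effects (0 genes), DESeq2 called 5, no filter 41 and limma 5 and 3 with pseudocounts of 1 and 0.1.

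The labels do not say whether equal replicate numbers mark a shared animal or day. Libraries of the same number correlated in their deviations at -0.069 to 0.127. With 2 libraries a group, such correlations cannot settle whether the numbers pair the samples. The replicate block changed no count of members and gave 24 genes in LA+NTP against Vehicle and 1 for the difference of the NTP effects. The block with the GC trend removed gave 1235, 504, 919 and 858 genes in the FFA and NTP contrasts, 23 in LA+NTP against Vehicle, 2 for the difference, and 0 members in LA and in LA+NTP against LA.

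Directions turned for values below 1.5-fold. Igf1 with LA was -0.28 with either pseudocount of limma (adjusted p = 0.00387 and 0.00379). Igf1 in LA+NTP against LA was 0.46 and 0.47 in limma (adjusted p = 0.000161 and 0.000141), so both FPKM changes passed there. In edgeR's fits the latter was 0.00 with the GC trend removed with or without the block, and between -0.12 and 0.01 with a library left out. With the GC trend removed, without and with the block, Igfals in LA was 0.02 and 0.01, Igfbp4 in PA+NTP against PA -0.03 and in LA+NTP against LA -0.16, and Igfals in PA+NTP against PA -0.01 with the block. The cause was not tested, except that FPKM divides by the estimated transcript length. Of 46 member values that did not pass the adjusted p, 27 changed sign in at least 1 alternative, and 2, both of Igfbp2, were called in at least 1.

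A library left out leaves 1 in its group, which is assumed to vary like the other groups. Members called then ranged from 0 to 1 in LA, from 1 to 2 in PA+NTP against PA, from 1 to 3 in LA+NTP against LA and from 2 to 4 in PA+NTP against Vehicle. Without LA+NTP 2, Igfals in LA+NTP against LA was 0.57 and lost its call. Irs1 in PA+NTP against PA was -0.59 and called without PA+NTP 1, and Igfals was 0.62 and Igf1 against Vehicle -0.65 and called without PA+NTP 2. Genes called ranged from 219 to 484 in PA+NTP against Vehicle (219 without Vehicle 1, 250 without Vehicle 2), from 0 to 27 in LA+NTP against Vehicle and from 0 to 5 for the difference of the NTP effects. Irs2, at 45 to 530 counts, and Igfbp2, at 43 to 278, are limited by depth.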
